A study of Mus musculus with 18 samples.

Results

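The 7 genes described here encode the Fat and Dachsous giant cadherins of the mouse and their Golgi kinase: Fat1, Fat2, Fat3 and Fat4, Dchs1 and Dchs2, and Fjx1. They were named as a family, and the family was picked because Fat4 had fallen about 15-fold (15.3-fold in the fit used here) in the TRIM21 line of this series. Of the 7, 6 had a line among the 24062 genes counted, 4 had enough reads to be tested among 12140 genes, and Dchs2 was not analysed here. The cells were NIH3T3, an immortalised line of mouse embryonic fibroblasts with a wild-type genotype in the labels (called WT here), and NIH3T3-mCherry-mTRIM21, which carries mouse TRIM21 as an mCherry fusion (the TRIM21 line below). TRIM21 is a ubiquitin ligase that binds antibodies in the cytosol. Cells of each line were electroporated with PBS, with 7.5 µg of bovine serum albumin (BSA) or with 7.5 µg of an antibody (IgG), at 1400 V in 2 pulses of 20 ms, and polyA-enriched RNA was sequenced 16 h later. This gave 6 groups of 3 samples, numbered 10, 11 and 14. Every group was electroporated, so none shows untouched cells, and 1 derived line was compared with 1 parental line, so an effect of the fusion and other differences between these lines cannot be told apart.

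Fat and Dachsous proteins are very large cadherins that bind each other between neighbouring cells. Fat4 on 1 cell surface binds Dchs1 on the next, and the kinase encoded by Fjx1 phosphorylates their cadherin repeats in the Golgi and so tunes the binding. In vertebrates the Fat4 and Dchs1 pair is best known for orienting cells in a tissue plane and for restraining growth in embryonic mesenchyme and kidney, and links to the Hippo growth-control pathway have been described, while Fat1 is known for its ties to the actin cytoskeleton at cell edges.

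Fat4 and Fat3 are shown by the sequence before an annotated start, because Fat4 is the gene the family was picked for and Fat3 gave no read in any sample. Both runs are the 250 bases before 1 RefSeq start (GRCm38.p6), 5′ to 3′ on the gene's strand, with every CG pair in capitals. The Fat4 run lies at chr3:38886690-38886939 on the plus strand and the Fat3 run at chr9:16502055-16502304 on the minus strand.
Fat4: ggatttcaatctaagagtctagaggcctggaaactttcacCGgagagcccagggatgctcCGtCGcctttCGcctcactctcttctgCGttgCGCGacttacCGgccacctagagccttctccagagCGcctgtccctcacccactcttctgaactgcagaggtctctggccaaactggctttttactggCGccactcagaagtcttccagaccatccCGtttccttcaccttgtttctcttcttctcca
Fat3: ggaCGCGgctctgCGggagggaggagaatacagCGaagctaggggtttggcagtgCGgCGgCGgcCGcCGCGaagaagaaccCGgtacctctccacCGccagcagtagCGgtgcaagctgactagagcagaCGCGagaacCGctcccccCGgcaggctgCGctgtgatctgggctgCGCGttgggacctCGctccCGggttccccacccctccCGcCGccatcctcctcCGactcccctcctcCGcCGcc
The Fat4 run holds 11 CG pairs and is 54.8% G or C, and the Fat3 run holds 27 CG pairs and is 70.4% G or C. Over the 27018 genes with such a run the median was 6.0 CG pairs, and 64.0% of genes had fewer than Fat4 and 91.8% fewer than Fat3. GGAATG, the core that TEAD factors of the Hippo pathway recognise, was searched on both strands and was in neither run, against 12.6% of all runs. The Fat1 and Fat2 runs of the same table each held it 1 time, but they precede starts 17108 and 25248 bases inside the RefSeq genes and are not shown. The starts after the Fat4 and Fat3 runs lie 2273 and 627 bases inside the 5′ ends of the RefSeq genes, so these are not their outermost starts, and these letters say nothing about which start the cells used.

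The introduced gene was checked first. Trim21 was at 984 to 1188 CPM in the TRIM21 samples and at 6.54 to 9.73 CPM in the WT samples (CPM are counts per 1e6 gene-assigned reads after TMM scaling). Libraries held 19509017 to 29766433 gene-assigned reads. Fibroblast markers (10 genes) summed to between 16747 and 28290 CPM in the TRIM21 samples and between 24017 and 32223 CPM in the WT samples, and among 9 tested, 1 differed between the lines, Thy1, a surface glycoprotein (log2 fold change -0.29, SE 0.071, edgeR quasi-likelihood, adjusted p = 0.0207, a call lost without the TRIM21 IgG sample numbered 10). Of the 9, 5 had an unadjusted p under 0.05 by edgeR, beside 2600 of the 12140 genes tested. DESeq2 called 2 of the 9 lower, beside 1040 genes over all, and the median of the 9 was -0.25. The 7 epithelial, 6 endothelial and 5 skeletal muscle markers summed to at most 0.61, 2.65 and 0.394 CPM in any sample, and of these only the endothelial Cdh5 could be tested (edgeR adjusted p = 0.616). Among immune markers the sum reached at most 8.7 CPM, nearly all from Cd68 (edgeR adjusted p = 0.833), and the T cell marker Cd3e was at 0 throughout. Neural markers summed to 18.9 to 28.3 CPM in the TRIM21 samples and 13.7 to 21.8 CPM in the WT samples, with Tubb3 higher (adjusted p = 0.0134) and Snap25 lower (adjusted p = 0.00248) by the edgeR quasi-likelihood test among 3 tested. Their part in the results below was not tested.

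Fat1 was by far the most abundant member in every sample, and Fat4 came second among the cadherins only in the WT line. Per length of exon, Fat1 stood at 8.34 CPM per kb in the WT line and 9.54 in the TRIM21 line, each a mean of 9 samples. Fat4 stood at 0.259 and 0.0164 CPM per kb, Dchs1 at 0.0658 and 0.0513, and Fat2 at 0.0127 and 0.00551, in the same order of lines. Fjx1, which has a much shorter transcript, stood at 0.416 CPM per kb in the WT line and 0.450 in the TRIM21 line. Fat3 was not detected. Of the summed level per kb of the 5 cadherins counted, Fat1 held 96.1% ± 0.814 (SD, n = 9) in the WT line and 99.2% ± 0.285 (SD, n = 9) in the TRIM21 line. The Fat4 share was 3.03% ± 0.825 and 0.174% ± 0.0955 (SD, n = 9 each).

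Fat4 (chromosome 3, 38886940 to 39011985, plus strand, GRCm38, protein coding, 17165 bases of exon) was well above the detection floor in WT cells and close to it in TRIM21 cells. In the WT line it had 88, 86 and 131 counts after PBS, 78, 78 and 132 after BSA, and 96, 92 and 105 after IgG, for numbers 10, 11 and 14. In the TRIM21 line it had 4, 3 and 8 counts after PBS, 7, 3 and 19 after BSA, and 8, 6 and 5 after IgG. The floor taken here, 3 counts, was met by all 9 TRIM21 samples and passed by 7 of them. Summed over samples this was 886 counts against 63.

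**Figure D1:**
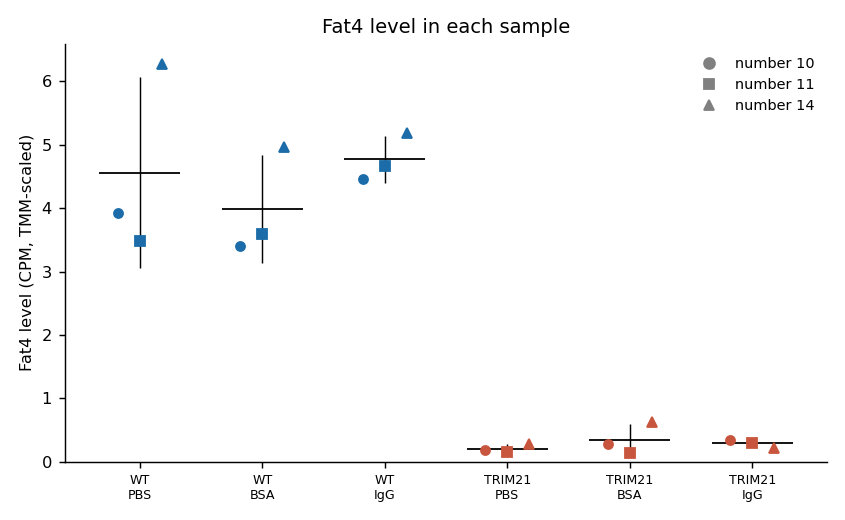
Fat4 level (CPM) in each of the 18 samples, by line and treatment. Blue stands for WT and red for TRIM21, the marker shape gives the sample number, and bars give the mean ± SD of 3 samples. The 9 WT samples lie between 3.40 and 6.28 CPM and the 9 TRIM21 samples between 0.134 and 0.621 CPM.

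In CPM the 6 groups fell into 2 blocks. The WT groups were at 4.77 ± 0.367 after IgG, 4.56 ± 1.5 after PBS and 3.99 ± 0.855 after BSA (SD, n = 3 each), neighbours in that order whose ranges overlapped. The TRIM21 groups followed at 0.344 ± 0.250 after BSA, 0.290 ± 0.0622 after IgG and 0.209 ± 0.0699 after PBS (SD, n = 3 each), again with overlapping ranges. The lowest WT sample was 5.47 times the highest TRIM21 sample, so the lines did not overlap. Between the line means of 4.44 ± 0.951 and 0.281 ± 0.146 CPM (SD, n = 9 each) the ratio was 15.8. The fitted log2 fold change averaged over treatments was -3.94 (SE 0.210). By treatment it was -4.36 (SE 0.382) after PBS, -3.44 (SE 0.342) after BSA and -4.01 (SE 0.367) after IgG. These line values chose the family and are given as a description with no test. Of the 12140 genes tested, 17 had a larger fall in the TRIM21 line.

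The TRIM21 BSA sample numbered 14 held the most Fat4 of its line, 19 counts or 0.621 CPM, and without it the change after BSA was -4.22. In that library no read fell on Ddx3y, a gene of the Y chromosome with 136 to 231 counts in the WT samples and 0 to 2 in the TRIM21 samples. Why that library held more Fat4 was not tested. Number 14 gave the highest Fat4 level in 5 of the 6 groups, the exception being TRIM21 cells after IgG, where it gave the lowest. The labels do not say what the numbers stand for. Within each number the WT mean was 14.4, 20.2 and 14.5 times the TRIM21 mean for 10, 11 and 14 (3 samples a line). Spread between samples was set beside counting error: the coefficient of variation of Fat4 was 21.4% in the WT line, where its mean count carries 10.1% counting error, and 52.0% in the TRIM21 line, where counting gives 37.8%. The second excess rested on 1 library: without the TRIM21 BSA sample numbered 14, an alternative chosen after seeing the data, the coefficient was 31.9% over 8 samples against 42.6% from counting. As the samples are bulk RNA, fewer cells with Fat4 and less Fat4 per cell cannot be told apart.

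Fat4 exons share 1209 bases with C230034O21Rik and 281 bases with Gm43539 (GENCODE M21), both annotated antisense on the minus strand and not analysed here. Libraries were strand-specific per the labels, but the strand setting of the counting was not given in the sources used here, so whether reads of the 2 strands were told apart is not known. Fat4 lies in a gene-poor stretch. The nearest protein-coding gene before it, Ankrd50, an ankyrin-repeat protein of endosome recycling, ends 402.1 kb away and was at 52.2 ± 5.16 CPM in the TRIM21 line and 54.4 ± 4.91 CPM in the WT line (SD, n = 9 each; log2 fold change -0.060, SE 0.067, edgeR adjusted p = 0.639). The nearest after it, Intu, a ciliary planar polarity effector, begins 1519.3 kb away and was at 6.67 ± 0.344 and 7.25 ± 0.799 CPM (log2 fold change -0.12, SE 0.073, edgeR adjusted p = 0.363). Further out, Spry1, an inhibitor of receptor kinase signalling, was lower in the TRIM21 line by a log2 fold change of -0.38 (SE 0.078, edgeR adjusted p = 0.00544), and the chaperone gene Hspa4l gave 0.13 (SE 0.069, edgeR adjusted p = 0.269). Slc25a31 had at most 2 counts in any sample and Gm5148 none.

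The genes whose profile was most like that of Fat4 were sought over the 18 samples, as the root mean square difference between log2 CPM profiles, each centred on its own mean. The 5 closest were Meg3 (0.373), Rian (0.398), Papss2 (0.463), H19 (0.527) and AF357359 (0.594). Meg3, Rian and H19 are imprinted noncoding RNAs and Papss2 makes the sulfate donor of the cell. Meg3 went from 162 ± 32.5 CPM in the WT line to 9.97 ± 2.10 in the TRIM21 line, Rian from 120.2 ± 21.5 to 7.45 ± 1.09, and Papss2 from 6.25 ± 1.10 to 0.344 ± 0.114 (SD, n = 9 each). H19 went from 23.3 ± 7.04 to 2.63 ± 0.938 CPM and AF357359 from 2.23 ± 0.405 to 0.160 ± 0.117. Like Fat4, they were chosen for a low level in the same samples. In the TRIM21 BSA sample numbered 14, Meg3 was at 13.8 CPM, the highest of its line, and H19 at 3.73, Rian at 8.21 and Papss2 at 0.327, each inside the range of the other TRIM21 samples. AF357359 was at 0.327 CPM there, again the highest of its line.

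Dchs1, the ligand of Fat4 (chromosome 7, 105752990 to 105787654, minus strand, 11052 bases of exon), was scarce in both lines. After PBS, BSA and IgG the WT samples numbered 10, 11 and 14 had 18, 17 and 10 counts, then 13, 13 and 24, then 25, 12 and 15. The TRIM21 samples had 5, 8 and 19, then 13, 18 and 15, then 11, 23 and 8. The lines overlapped, and 6 of 9 pairs with the same treatment and number were lower in the TRIM21 line. Its level was 0.728 ± 0.208 CPM in the WT line and 0.567 ± 0.272 CPM in the TRIM21 line (SD, n = 9 each), a fitted log2 fold change of -0.38 (SE 0.248). Within numbers the WT to TRIM21 ratio was 2.05, 0.810 and 1.39 for 10, 11 and 14, so its direction differed between them. Receptor and ligand stood in another order in the 2 lines. Per length, Fat4 was 4.22 ± 1.74 times Dchs1 in the WT line (2.47 to 8.43) and 0.371 ± 0.214 times Dchs1 in the TRIM21 line (0.107 to 0.816). This ratio holds the Fat4 line values that chose the family, so it is a description and no separate result. In the TRIM21 line it rests on few reads of both genes. Dchs1 shares 648 bases of exon with the pseudogene Gm15645 on the other strand, which itself had at most 1 count in any sample.

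Fjx1, the kinase (chromosome 2, 102449366 to 102452499, minus strand, a single exon of 3134 bases), was detected in every sample with 14 to 39 counts. The WT samples had a lowest, median and highest level of 0.671, 1.18 and 1.92 CPM, and the TRIM21 samples of 1.03, 1.36 and 1.85 CPM. The ranges overlapped almost wholly, and the fitted log2 fold change was 0.099 (SE 0.171). After PBS it was 0.53 (SE 0.295), after BSA -0.13 (SE 0.291) and after IgG -0.10 (SE 0.302).

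Fat1 (chromosome 8, 44935447 to 45052257, plus strand, 15655 bases of exon) had 2354 to 4321 counts. Its level in the WT line was 151, 123 and 113 CPM after PBS, 105, 135 and 117 after BSA, and 164, 134 and 133 after IgG, for numbers 10, 11 and 14. In the TRIM21 line it was 164, 160.2 and 125 CPM after PBS, 166, 150.0 and 141 after BSA, and 169, 155 and 115 after IgG. The lines overlapped throughout, with means of 131 ± 18.8 and 149 ± 19.1 CPM (SD, n = 9 each), although the TRIM21 sample was the higher in all but 1 of 9 pairs. The fitted log2 fold change was 0.20 (SE 0.088), and it was 0.21 (SE 0.153) after PBS, 0.36 (SE 0.153) after BSA and 0.024 (SE 0.152) after IgG. Number 10 gave the highest Fat1 level in 5 of 6 groups and number 14 in 0, whereas number 14 was mostly the highest for Fat4. Of Fat1 exons, 487 bases are shared with the antisense Gm2366, not analysed here. The Fat1 coefficient of variation was 14.4% in the WT line and 12.8% in the TRIM21 line, against 1.86% and 1.69% from counting.

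Fat2, the member best known from cerebellar granule cells (chromosome 11, 55250609 to 55336564, minus strand), had 1 to 7 counts in the samples of the WT line and 0 to 5 in those of the TRIM21 line. These summed to 36 and 17 counts, and 9 of the 18 samples were under the floor of 3 counts. Fat2 did not pass the filter on low counts and was not tested. Its level was 0.185 ± 0.0995 and 0.0800 ± 0.0644 CPM (SD, n = 9 each), with overlapping lines. Of 9 pairs with the same treatment and number, 8 were lower in the TRIM21 line, on these few reads. Fat3, known from neurons of the retina (chromosome 9, 15910189 to 16501285, minus strand), had 0 counts in all 18 samples, which allows a level of up to 0.0981 to 0.152 CPM per sample, counting error alone considered.

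**Figure D2:**
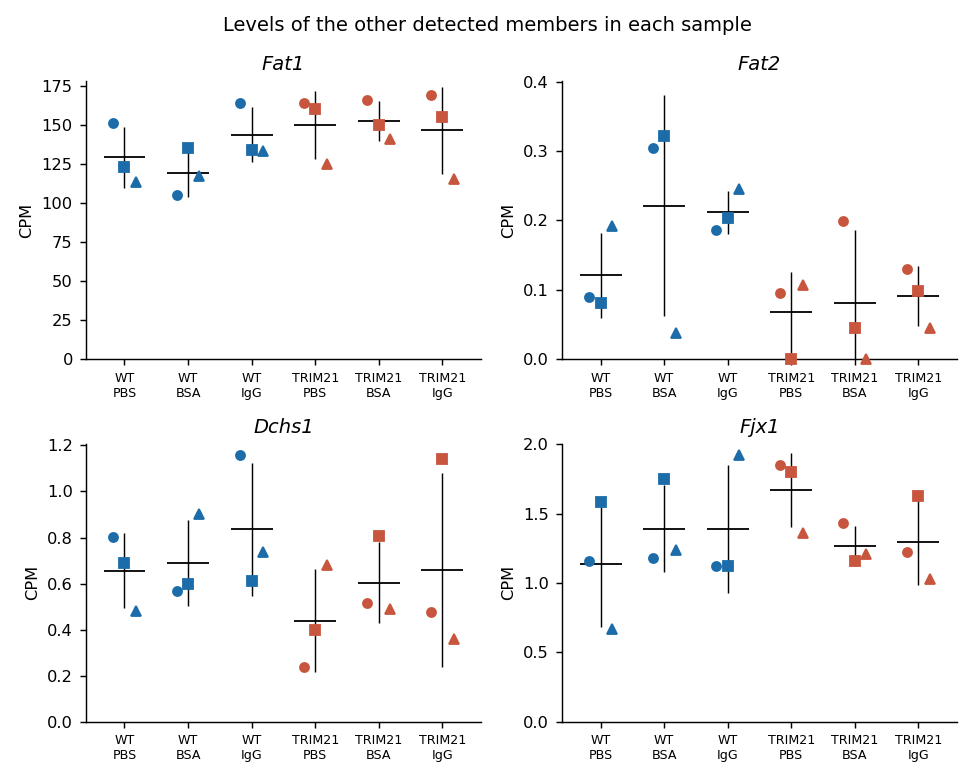
Levels (CPM) of Fat1, Fat2, Dchs1 and Fjx1 in each of the 18 samples, with blue for WT, red for TRIM21, circles, squares and triangles for numbers 10, 11 and 14, and bars for the mean ± SD of 3 samples, cut at 0. In every panel the blue and red samples overlap, and each panel has its own scale.

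Of the 4 tested members, 1 passed an adjusted p of 0.05 between the lines in the edgeR quasi-likelihood test over all genes, Fat4, against 6.18% of the 12140 genes. As the family was picked on this contrast, nothing is read from that count. The median of the 4 log2 fold changes was -0.14, beside 0.014 over all genes tested.

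Treatment differences were not used to pick the family and were tested. In the 6 comparisons of treatments within a line, 0 of 24 member tests passed (edgeR quasi-likelihood, smallest adjusted p = 0.733), 0 had an unadjusted p under 0.05, and percent called over all genes was 0% in each. DESeq2 also called 0 of the 24, with 0 at an unadjusted p under 0.05. Over all genes, edgeR gave 45 to 713 of the 12140 genes per comparison at an unadjusted p under 0.05. In the TRIM21 line Fat4 differed by a log2 fold change of 0.41 (SE 0.570) for IgG against PBS, -0.33 (SE 0.501) for IgG against BSA and 0.74 (SE 0.526) for BSA against PBS. In the WT line the same differences were 0.070 (SE 0.257), 0.25 (SE 0.258) and -0.18 (SE 0.257). With so few Fat4 reads in the TRIM21 line, the errors there are about as large as the differences. Without the TRIM21 BSA sample numbered 14 the last 2 values of that line turned to 0.46 and -0.042. Fat1 was measured more finely. It gave -0.031, -0.060 and 0.029 in the TRIM21 line (SE 0.152 each) and 0.16, 0.27 and -0.12 in the WT line (SE 0.153 each) in the order just given. Its lowest unadjusted p, 0.0903 for IgG against BSA in the WT line (edgeR adjusted p = 0.741), was the lowest of any member. With the sample number as a block in the edgeR fit, the same Fat1 difference had an unadjusted p of 0.0368 (adjusted p = 0.509). It was the only 1 of the 24 member tests under 0.05 there, beside 6.61% of the tests over all genes. Dchs1 ranged from 0.079 to 0.50 with SEs of 0.409 to 0.456, and Fjx1 from -0.39 to 0.27 with SEs of 0.284 to 0.304. The comparisons within a line share samples and are not independent of each other.

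**Figure D3:**
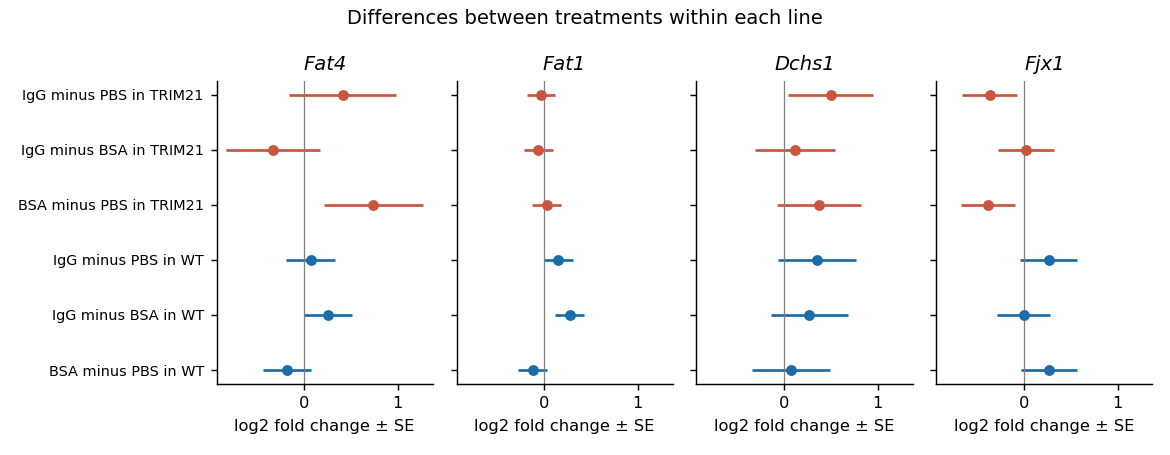
Log2 fold change ± SE of the 4 tested members for the 3 treatment differences in each line (red for TRIM21, blue for WT), from the edgeR fit to all 18 samples. Fat1 has the narrowest error bars, and the widest are those of Fat4 in the TRIM21 line, with SEs of 0.501 to 0.570.

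The interaction asked if the lines differed in their treatment differences, and it called 0 of 12 member tests (edgeR quasi-likelihood, smallest adjusted p = 0.652, 0 at an unadjusted p under 0.05, 0% of all genes). DESeq2 also called 0 of 12, with 0 at an unadjusted p under 0.05. For Fat4 the difference of BSA against PBS was larger in the TRIM21 line by 0.92 on the log2 scale (SE 0.586), and 0.14 without the TRIM21 BSA sample numbered 14.

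The genes around Fat and Dachsous were followed in 7 lists between the lines, with 107 of 160 distinct listed genes other than the members tested. In the edgeR quasi-likelihood test 8 passed, 3 higher and 5 lower in the TRIM21 line, or 7.48% against 6.18% of all genes. The 7 lists were drawn up with earlier results of these data known, and this share lies near the background. The count was 5 in the fits without the TRIM21 IgG sample numbered 10, the WT BSA sample numbered 14, or the WT IgG sample numbered 10 or 14, and 14 without the TRIM21 PBS sample numbered 14.

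Over all genes, edgeR gave 2600 of the 12140 at an unadjusted p under 0.05 between the lines, and DESeq2 called 1040 genes. Among the partners of Fat and Dachsous, 0 of 20 tested genes passed (7 at an unadjusted p under 0.05 by edgeR, 0 called by DESeq2). Their median log2 fold change was 0.048, beside 0.014 over all genes tested. The 2 most abundant were Csnk1d, a casein kinase whose fly relative phosphorylates Fat, at 173 ± 7.27 CPM in the TRIM21 line and 178 ± 9.05 in the WT line, and the junction scaffold Mpdz at 147 ± 14.6 and 136 ± 12.7 CPM (SD, n = 9 each). Of the Hippo core and its regulators, 0 of 29 passed (3 at an unadjusted p under 0.05 by edgeR, 1 called by DESeq2, lower), with a median of 0.056. The most abundant were the scaffold Amotl2 at 226 ± 14.8 and 218 ± 18.6 CPM and the DNA-binding partner of YAP, Tead1, at 210.2 ± 20.5 and 216 ± 27.4 CPM in the TRIM21 and WT lines (SD, n = 9 each). Among YAP and TEAD target genes, a list that holds Fjx1 itself, 1 of 21 passed, Dlc1, lower by a log2 fold change of -0.27 (SE 0.075, edgeR adjusted p = 0.0401), a call lost in 11 of 18 fits that left out 1 sample. Of the 21, 4 had an unadjusted p under 0.05 by edgeR, DESeq2 called 2 lower, and the median of that list was 0.056. Axl, a receptor kinase, was its most abundant gene at 1028 ± 171 and 937 ± 113 CPM, followed by Myof, a membrane repair protein, at 599.8 ± 46.7 and 542 ± 50.1 CPM.

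Core genes of planar cell polarity, the other system that orients cells in a tissue plane, included 3 of 21 tested genes that fell and 0 that rose by edgeR, against 6.18% of all genes called in either direction. DESeq2 called 4 lower and 0 higher, beside 1040 genes over all in either direction, and the median was -0.054. Daam2, a formin downstream of Dishevelled, was at 19.3 ± 4.64 CPM in the WT line and 12.0 ± 1.25 CPM in the TRIM21 line (SD, n = 9 each; log2 fold change -0.68, SE 0.119, edgeR adjusted p = 0.00141). Prickle1, a cytoplasmic polarity protein, went from 9.12 ± 1.41 to 6.05 ± 0.962 CPM (log2 fold change -0.60, SE 0.108, edgeR adjusted p = 0.00187). Fzd6, a Frizzled receptor, went from 19.8 ± 1.49 to 15 ± 1.65 CPM (log2 fold change -0.41, SE 0.066, edgeR adjusted p = 0.000649). For each of these 3 genes the ranges of the lines overlapped. All 3 calls held in the 18 fits that left out 1 sample. The 2 most abundant genes of the list, the Wnt receptor Ryk at 289 ± 18 and 308 ± 11.8 CPM and its ligand Wnt5a at 96.2 ± 6.42 and 99.9 ± 8.92 CPM in the TRIM21 and WT lines, did not pass (edgeR adjusted p = 0.309 and 0.614).

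**Figure D4:**
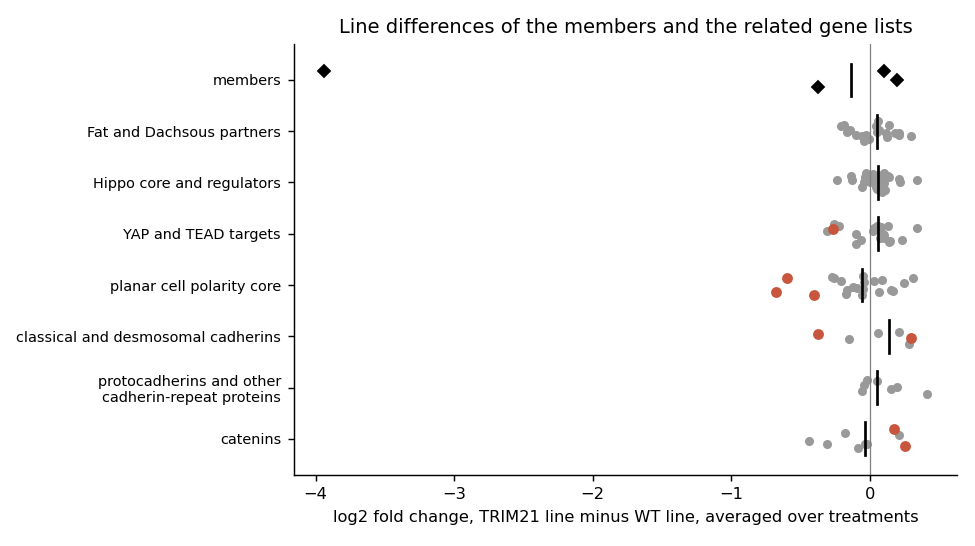
Log2 fold change between the lines (TRIM21 minus WT, averaged over treatments) of each tested gene, for the 4 members (black diamonds) and the 7 lists. Red points passed an edgeR adjusted p of 0.05, grey points did not, and black bars are list medians. Fat4 at -3.94 stands far from all other points, of which the lowest is Daam2 at -0.68.

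Most of the other cadherins listed had too few reads to be tested. Of 31 classical and desmosomal cadherins, 16 had no read in any sample, including 3 desmocollins and 6 desmogleins, and 6 were tested. Of these 6, edgeR called 1 higher and 1 lower, against 6.18% of all genes called in either direction. Cdh11, the main cadherin of mesenchyme, fell from 273 ± 33.7 CPM in the WT line to 211 ± 24.2 CPM in the TRIM21 line (SD, n = 9 each; log2 fold change -0.38, SE 0.079, edgeR adjusted p = 0.00640). N-cadherin, Cdh2, rose from 65.8 ± 5.35 to 81.1 ± 14 CPM (log2 fold change 0.30, SE 0.076, edgeR adjusted p = 0.0241), a call lost in 7 of 18 fits that left out 1 sample. The list's median was 0.14. Among non-clustered protocadherins and other cadherin-repeat proteins, 0 of 7 tested genes passed (1 at an unadjusted p under 0.05 by edgeR, 1 called by DESeq2, higher), with a median of 0.051. Its most abundant genes were the calsyntenin Clstn1 at 209.9 ± 15 and 183 ± 16 CPM and Pcdh19 at 189.6 ± 25.9 and 184 ± 22.8 CPM in the TRIM21 and WT lines.

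Of the catenins, which tie cadherin tails to the cytoskeleton, 2 of 9 tested genes rose and 0 fell by edgeR. Over all genes edgeR called 6.18% in either direction. DESeq2 called 2 catenins higher and 2 lower, beside 1040 genes over all. The median was -0.037. Ctnna1 was at 543 ± 27.8 CPM in the TRIM21 line and 482 ± 16 in the WT line (SD, n = 9 each; log2 fold change 0.17, SE 0.048, edgeR adjusted p = 0.0407), with no overlap between the lines, yet the call was lost in 15 of 18 fits that left out 1 sample and without the filter on low counts (adjusted p = 0.0918). Pkp4, a p120-related armadillo protein, was at 57.5 ± 5.59 and 48.3 ± 2.88 CPM (log2 fold change 0.25, SE 0.061, edgeR adjusted p = 0.0177). Ctnnb1, beta-catenin, was the most abundant of the list at 753 ± 16.2 and 766 ± 29.0 CPM and did not pass (edgeR adjusted p = 0.785).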

How the data were processed

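RNA counts of 18 samples in 6 groups of 3 were used. The authors deposited unnormalized read counts per gene symbol, in a table for each sample. The submitters' processing notes name the build mm10 and the tools STAR 2.5.1b, HTSeq 0.6.0 and DESeq2 1.6.3, without settings or annotation. Reads given to no gene (13.1% to 18.8% of counted reads outside genes, 0.473% to 0.630% over several genes) were left out. Counts were tested with edgeR 4.0.16 in R 4.3.3: filterByExpr (minimum count 10, minimum total 15) kept 12140 of 24062 genes, TMM factors were 0.977 to 1.03, and the 6 group means were fitted jointly in a quasi-likelihood model, with Benjamini-Hochberg adjustment over all genes and a threshold of 0.05. Standard errors came from the quasi-likelihood F statistic. The procedure was tested on simulated data. Log2 CPM for profile likeness used a prior count of 2. Gene models and shared exon bases came from GENCODE M21 (GRCm38) by symbol, and sequences from RefSeq (GRCm38.p6), which held 5 of the 7 members. The members and lists were chosen with earlier results of these data known. Genes were named as the members, up to 4 called genes of each list with the largest change and its 2 most abundant, the 5 profiles nearest to Fat4 and the 3 nearest protein-coding genes on each side of it; Ddx3y and Gm15645 were added after values were seen. Alternatives were DESeq2 size factors, no filter, a minimum of 10 counts throughout, a block for the replicate number, the DESeq2 1.42.0 Wald test and leaving out each sample in turn. The labels do not say that the 3 samples of a group came from separate cultures, so p-values measure only the spread between these samples, which may be technical. Samples of 1 group differed by more than counting noise (chi-square over degrees of freedom, 10.6 to 82.0).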

Additional observations from a re-analysis of the deposited data

Results flagged for a closer look

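The Fjx1 estimates had opposite signs in the lines when BSA was compared with PBS. Relative to the PBS mean, it was lower in all 3 BSA samples of the TRIM21 line and higher in all 3 of the WT line. The ranges of the PBS and BSA samples overlapped in both lines. The log2 fold changes were -0.39 and 0.27, and their difference was -0.65 (SE 0.414, edgeR quasi-likelihood interaction, adjusted p = 0.652), which did not pass. The WT value rested on 1 library: without the WT PBS sample numbered 14, at 0.671 CPM, it was 0.017 and the difference was -0.40.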

How the results depend on the processing

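The Fat4 change between the lines was -3.93 to -3.96 on the log2 scale in the alternatives that kept all samples and tested it, and -4.20 to -3.83 when single samples were left out. After PBS, BSA and IgG, leaving out 1 sample gave -4.69 to -4.07, -4.22 to -3.10 and -4.17 to -3.86. Requiring 10 counts in every sample removed Fat4 from the test, so the count of members called went from 1 to 0; Dchs1 was removed too. Leaving out single samples kept that count at 1, and gave 517 to 1268 genes between the lines and 5 to 14 listed genes; the highest values of both came without the TRIM21 PBS sample numbered 14. With the DESeq2 Wald test 1040 genes and 14 listed genes passed, against 750 and 8 by edgeR. With the replicate number as a block, 1462 genes and 17 listed genes passed, against 750 and 8, Fat4 changed by -3.96, and the treatment and interaction calls for members stayed at 0. By list, the block gave 2 lower among the partners of Fat and Dachsous, 1 lower in the Hippo core and 2 lower among YAP and TEAD targets. It gave 1 higher and 4 lower in planar cell polarity, and 2 higher and 2 lower among the catenins. Classical and desmosomal cadherins had 1 higher and 1 lower, and the protocadherin list 1 higher. Outside the 7 lists, the block called 4 lower among 9 fibroblast markers. Samples with the same number share only that number as far as the labels tell: 32 of 45 same-number pairs correlated above 0.1 in their deviations from group means (mean 0.218, lowest -0.323), and 16 of 18 samples correlated best with their own number. Depth limits Fat2, Fat3, Dchs1 and the TRIM21 values of Fat4, all of which rest on few reads. Of 36 treatment and interaction differences of the 4 tested members, 19 changed sign in at least 1 fit without 1 sample, Fat1 and Fjx1 among them, and none of the 36 had passed the test.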
